A study of Mus musculus with 2 samples.

Results

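Antiviral RNA-binding factors and oligoadenylate synthetases were followed across the cells of mouse brain as a panel of 10 genes: the IFIT genes Ifit1, Ifit2, Ifit3 and Ifit3b, the OAS and OAS-like genes Oas1a, Oas2, Oas3, Oasl1 and Oasl2, and Isg15. The genes were picked out by symbol, but the panel was chosen with earlier results of these data known. They make up 10 of the 29217 genes listed in either of 2 single-cell RNA libraries. All 10 were listed in the library titled positive and 9 in the library titled control, which did not list Oas1a. Both libraries came from brain of Balb/c mice and were built with the Singleron GEXSCOPE kit, which tags every captured RNA with a molecular barcode, the UMI, so that copies of a molecule count once. The typing given for both is triple-negative breast cancer, and the sources used here do not give age, sex or the number of animals. The labels conflict: the library titled control is entered as carrying metastasis of the mouse mammary carcinoma line 4T1 and the library titled positive as lacking it. Groups are therefore called by title. Carcinoma-like cells, described below, numbered 5945 in titled positive and 3 in titled control. With 1 library per group there is no replicate spread and no test of any difference between the libraries, and the 95% intervals given here (exact Poisson for levels, exact conditional binomial for ratios, Clopper-Pearson for shares) cover counting error only.

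All 10 genes belong to the response that interferons switch on through their receptors and IRF transcription factors. IFIT proteins bind viral RNA and block its translation, and OAS enzymes sense double-stranded RNA and make short adenylate chains as a signal for the breakdown of RNA. ISG15 is a small ubiquitin-like protein that is joined to other proteins by a dedicated set of enzymes. Several of these genes answer both to type I interferons and to interferon gamma.

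The IFIT genes lie together on chromosome 19 (Ifit2 at chr19:34550694-34576419, Ifit3 at chr19:34583531-34588731, Ifit3b at chr19:34607970-34613401 and Ifit1 at chr19:34640871-34650009, all on the plus strand of GRCm38 in GENCODE M21). The OAS and OAS-like genes lie on chromosome 5, Oasl2 at chr5:114896936-114912234 and Oasl1 at chr5:114923240-114937915 on the plus strand, and Oas2 at chr5:120730333-120749853, Oas3 at chr5:120753098-120777661 and Oas1a at chr5:120896256-120907521 on the minus strand. Isg15 lies at chr4:156199424-156200818 on the minus strand. The interferon-stimulated response element, a site bound by IRF proteins, was searched by its core TTTCNNTTTC and the reverse complement GAAANNGAAA, with overlapping matches counted, in RefSeq promoter windows of GRCm38.p6 that reach from 250 bases before to 50 bases after each gene's start. Of the 9 members with a window, 6 held a match, against 1131 of all 32851 windows (3.44%). Ifit2, Oasl1 and Oasl2 held none in these windows. The 250 bases before the start are shown for the members that recur below, 5′ to 3′ on the gene's strand, with the matches in capitals, because they show how alike the near-copies are and where the matches lie.

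Ifit1 (chr19:34640639-34640888, plus strand): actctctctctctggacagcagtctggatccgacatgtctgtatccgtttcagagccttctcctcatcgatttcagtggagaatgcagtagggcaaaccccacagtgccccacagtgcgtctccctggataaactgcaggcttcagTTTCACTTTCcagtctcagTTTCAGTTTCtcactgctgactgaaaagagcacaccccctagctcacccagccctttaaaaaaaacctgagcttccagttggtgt
Ifit3 (chr19:34583279-34583528, plus strand): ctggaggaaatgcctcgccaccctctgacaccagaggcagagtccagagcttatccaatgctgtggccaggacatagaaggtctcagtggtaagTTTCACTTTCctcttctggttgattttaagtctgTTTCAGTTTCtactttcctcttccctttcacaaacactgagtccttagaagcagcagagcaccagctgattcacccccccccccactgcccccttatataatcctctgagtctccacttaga
Ifit3b (chr19:34607707-34607956, plus strand): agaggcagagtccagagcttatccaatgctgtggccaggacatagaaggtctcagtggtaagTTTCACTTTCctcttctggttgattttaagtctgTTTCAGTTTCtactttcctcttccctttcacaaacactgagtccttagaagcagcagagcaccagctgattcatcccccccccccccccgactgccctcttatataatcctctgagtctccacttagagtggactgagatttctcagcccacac
Isg15 (chr4:156200819-156201068, minus strand): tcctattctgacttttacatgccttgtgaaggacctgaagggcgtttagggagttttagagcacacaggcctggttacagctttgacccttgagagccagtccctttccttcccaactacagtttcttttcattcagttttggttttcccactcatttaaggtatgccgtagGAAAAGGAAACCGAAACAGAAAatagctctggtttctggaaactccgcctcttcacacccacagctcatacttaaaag
Oas1a (chr5:120907526-120907775, minus strand): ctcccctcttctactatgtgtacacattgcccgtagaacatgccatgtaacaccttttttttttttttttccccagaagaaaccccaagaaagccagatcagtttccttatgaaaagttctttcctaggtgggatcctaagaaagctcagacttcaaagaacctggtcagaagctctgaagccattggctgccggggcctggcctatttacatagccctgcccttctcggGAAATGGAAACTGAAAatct

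The matches lay 104 to 95 and 85 to 76 bases before the start of Ifit1, and 3 overlapping matches filled the stretch 78 to 57 bases before the start of Isg15. In Oas1a both lay within 20 bases of the start. The windows of Ifit3 and Ifit3b shared an unbroken identical stretch of 169 bases that held both of their matches, and the transcripts are alike too. Of the 50-base stretches in Ifit3 transcripts, 51.2% also occurred in Ifit3b, and of those in Oas1a 57.6% also occurred in Oas1g, so reads of either pair can be split or misassigned and their separate counts are uncertain. Among the members, no pair other than Ifit3 and Ifit3b shared such a stretch.

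The titled positive library held 98141261 UMIs in 10842 barcodes (median 7383.5 per barcode) and the titled control library 55657687 UMIs in 10417 barcodes (median 4230). Filters kept 10508 titled positive and 9686 titled control cells, and clusters were named from marker genes as X-like classes. The libraries differed in make-up: carcinoma-like cells numbered 5945 in titled positive, with epithelial keratins and Epcam, and 3 in titled control, with no UMI of the carcinoma markers. Oligodendrocyte-like cells numbered 848 and 3620, astrocyte-like cells 21 and 1896, monocyte- or macrophage-like cells 2254 and 85, and microglia-like cells 0 and 2374. Cluster 11, with 639 cells in titled positive and 0 in titled control, scored nearly alike for microglia and macrophage markers and is called by its number. The libraries shared 149 barcodes, and 137 were kept in both, of which 5 had the same named class in both. Leaving these barcodes out changed no count of members past 2-fold and moved no summed ratio between the libraries by more than counting error. RNA of carcinoma markers was found in every class of the titled positive library, at 33.7% of their level in carcinoma-like cells in T cell-like cells, 27.8% in neutrophil-like cells, 18.6% in astrocyte-like cells, 15.1% in ependymal-like cells and between 9.46% and 11.5% in the remaining classes of 20 or more cells. These values are set beside the results they touch.

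Oligodendrocyte-like cells, the myelin-forming glia, had the highest summed level of the 10 members in the titled positive library, and ependymal-like cells, the ciliated lining of the ventricles, had the highest in the titled control library. Levels are UMIs of the gene per 1000000 UMIs of the class (CPM). In titled positive, the summed level was 2248 CPM in oligodendrocyte-like cells (interval 2204 to 2292), 1628 CPM in ependymal-like cells (1457 to 1814) and 1399 CPM in fibroblast-like cells (1310 to 1492). It was 1126 CPM in astrocyte-like cells (933 to 1346), 1098 CPM in endothelial-like cells (1021 to 1178), 898 CPM in carcinoma-like cells (891 to 906) and 825 CPM in cluster 11 (795 to 855). The lowest 3 were monocyte- or macrophage-like cells with 800 CPM (785 to 815), T cell-like cells with 534 CPM (502 to 569) and neutrophil-like cells with 448 CPM (413 to 486). In that order, oligodendrocyte-like cells stood apart from ependymal-like cells, while the neighbours from ependymal-like to endothelial-like cells, and cluster 11 and the macrophage-like cells, did not differ beyond counting error.

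In the titled control library, ependymal-like cells reached 4292 CPM (4167 to 4419), and the next classes were macrophage-like cells at 714 CPM (635 to 799), fibroblast-like cells at 621 CPM (555 to 693) and endothelial-like cells at 600 CPM (572 to 629). Pericyte-like cells had 521 CPM (460 to 587), T cell-like cells 289 CPM (233 to 355) and microglia-like cells 160 CPM (152 to 169). Below them stood smooth muscle-like cells with 121 CPM, choroid plexus-like cells with 112 CPM, neuron-like cells with 89.2 CPM, astrocyte-like cells with 78.1 CPM (71.7 to 84.8) and oligodendrocyte-like cells with 36.6 CPM (34.3 to 39.1). The neighbours from macrophage-like to pericyte-like cells, and those from microglia-like to astrocyte-like cells, overlapped in pairs, and oligodendrocyte-like cells stood below all others. Of the members, 5 of the 9 with UMIs were highest in ependymal-like and 4 in macrophage-like cells in titled control. In titled positive, 4 of 10 were highest in oligodendrocyte-like cells, 2 in macrophage-like cells and 1 each in carcinoma-like cells, cluster 11, ependymal-like and fibroblast-like cells. The oligodendrocyte-like class was thus the lowest class of the titled control library and the highest of the titled positive library.

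**Figure D1:**
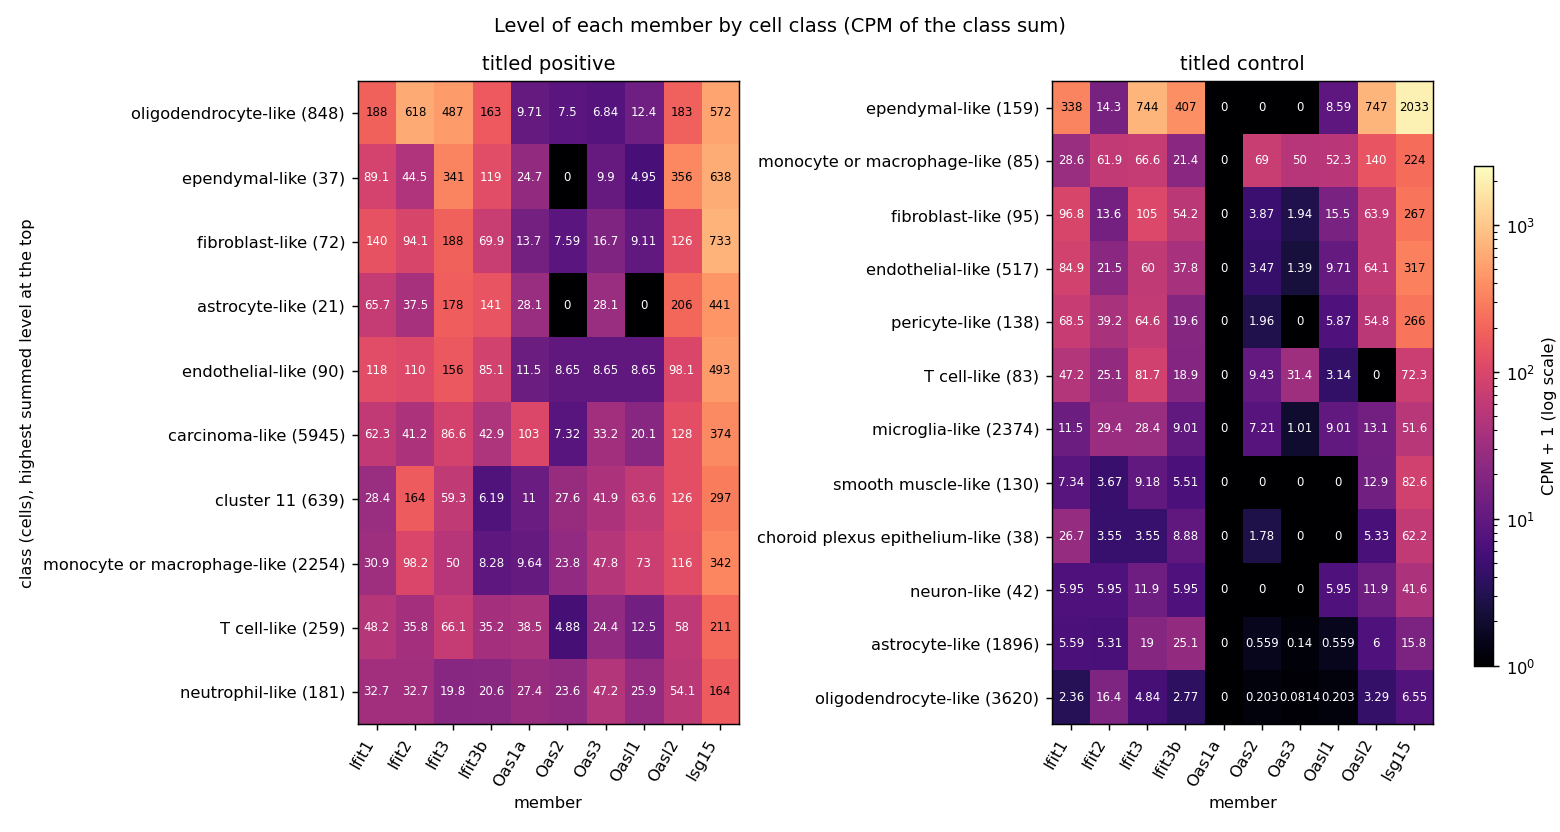
Level of each member (columns) in each class of at least 20 cells (lines, highest summed level at the top, cell number in brackets) in the titled positive (left) and titled control library (right), in CPM of the class sum, with colour on a log scale of CPM + 1. Oligodendrocyte-like cells are at the top on the left with 618 CPM of Ifit2, and at the bottom on the right with 16.4 CPM; the Oas1a column is at 0 throughout titled control.

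Every member was higher in oligodendrocyte-like cells of the titled positive library. Ifit1, which holds viral RNA with unmethylated caps, had 852 UMIs (188 CPM) in titled positive and 58 UMIs (2.36 CPM) in titled control, a log2 ratio of 6.30 (interval 5.93 to 6.73). Ifit2, which restricts neurotropic viruses in mice, had 2800 UMIs (618 CPM) in titled positive and 402 UMIs (16.4 CPM) in titled control, a log2 ratio of 5.24 (5.09 to 5.39). Ifit3, which joins other IFIT proteins in complexes, had 2209 UMIs (487 CPM) in titled positive and 119 UMIs (4.84 CPM) in titled control, a log2 ratio of 6.65 (6.39 to 6.93). None of these intervals came near 0. Ifit3b, its near-copy, had 740 UMIs (163 CPM) in titled positive and 68 UMIs (2.77 CPM) in titled control, a log2 ratio of 5.87 (5.52 to 6.26), under the limit on separate counts given above.

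Isg15 had 2595 UMIs (572 CPM) in titled positive and 161 UMIs (6.55 CPM) in titled control, a log2 ratio of 6.45 (6.22 to 6.69). Oasl2, an OAS-like protein, had 828 UMIs (183 CPM) in titled positive and 81 UMIs (3.29 CPM) in titled control, a log2 ratio of 5.78 (5.46 to 6.14). These 2 genes and the IFIT genes carried nearly all member UMIs of the class, and Oas1a, Oas2, Oas3 and Oasl1 were sparse. Oasl1, which in mouse holds back translation of Irf7, had 56 UMIs (12.4 CPM) in titled positive and 5 UMIs (0.203 CPM) in titled control, a log2 ratio of 5.80 (4.62 to 7.60). Oas2 had 34 UMIs (7.500 CPM) in titled positive and 5 UMIs (0.203 CPM) in titled control, a log2 ratio of 5.09 (3.84 to 6.92). Oas3 had 31 UMIs (6.84 CPM) in titled positive and 2 UMIs (0.0814 CPM) in titled control, a log2 ratio of 6.09 (4.42 to 9.50). Their wide intervals come with the few UMIs of the titled control class. As shares of the carcinoma-like level, Oasl1 stood at 61.4%, Oas2 at 102% and Oas3 at 20.6%, where the carcinoma markers reached 11.4%. How much of the Oas3 level was free RNA was not tested. Oas1a had 44 UMIs (9.71 CPM) in titled positive and 0 in titled control, at least 79.5-fold higher against a floor of 3 counts in the titled control class, but its level followed the carcinoma markers, as given further on.

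All 10 members were at least 2-fold higher in titled positive oligodendrocyte-like cells, as were 16.6% of the genes with at least 10 UMIs in the class sums together. The members' median log2 ratio was 5.98, also with Oas1a at its floor bound, beside -0.20 over all genes tested. Together the members had 10189 UMIs (2248 CPM) in titled positive and 901 UMIs (36.6 CPM) in titled control, a log2 ratio of 5.94 (5.84 to 6.04). The IFIT genes made up 64.8% of the members' UMIs in titled positive and 71.8% in titled control. In the 135 titled positive cells of the class with no carcinoma-marker UMI at 2000 UMIs per cell, set against 3586 such cells of titled control, the summed log2 ratio was 6.44, with 6 members past 2-fold at that lower depth. The share of all genes past 2-fold was not counted in these cells. Set against carcinoma-like cells of the same library, oligodendrocyte-like cells had 1498% of the level of Ifit2, 563% of Ifit3, 302% of Ifit1 and 153% of Isg15, while the carcinoma markers reached 11.4%. The titled positive class is mostly cluster 9, led by Apod, Serpina3n, Klk6 and Ly6a, and its summed oligodendrocyte markers were 45.3% of those of the titled control class, which lay in clusters 1, 4 and 22.

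The partners of these genes were higher in the same cells. All 5 genes of ISG15 conjugation were at least 2-fold higher, from Usp18, the protease that removes ISG15, with 391 CPM in titled positive and 4.03 CPM in titled control (log2 ratio 6.59), and the conjugating enzyme Ube2l6 with 66.8 CPM and 1.59 CPM (5.38), to the activating enzyme Uba7 with 21.0 CPM and 1.42 CPM (3.87) and the ligase Trim25 with 18.1 CPM and 2.60 CPM (2.79). Of the other antiviral effectors 20 of 20 were higher. The highest ratios were those of Cmpk2, with 88.5 CPM in titled positive and 1.26 CPM in titled control (6.11), and the GTPase Mx1, with 10.1 CPM and 0.203 CPM (5.52). The lowest were those of Nmi (2.87) and Adar (1.40), both also past 2-fold.

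The interferon receptors and their kinases gave no such difference, with 0 of 8 genes past 2-fold, between Jak2 at 0.81 and Ifngr2 at -0.39. Among transcription factors 7 of 9 were higher, led by Irf1 with 186 CPM in titled positive and 1.51 CPM in titled control (6.93) and Irf7 with 269 CPM and 4.47 CPM (5.90), while Irf2 (-0.05) and Irf3 (-0.27) were not. Among sensors 7 of 11 were higher, from Zbp1 with 257 CPM in titled positive and 0.936 CPM in titled control (8.07) and Ifih1, the double-stranded RNA sensor MDA5, with 46.3 CPM and 1.87 CPM (4.62), with Mavs (0.27) and Tlr7 (-0.04) the lowest. The genes most tied to interferon gamma had 12 of 12 past 2-fold and the highest ratios of any list, led by Iigp1 with 1536 CPM in titled positive and 0.488 CPM in titled control (11.56) and Igtp with 1602 CPM and 2.68 CPM (9.21). Among the negative regulators 4 of 6 were higher. Genes known to answer to tissue dissociation moved with them, 14 of 14 past 2-fold with a median log2 ratio of 2.49, and their part in the result was not tested; of 10 housekeeping genes 0 were past 2-fold.

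**Figure D2:**
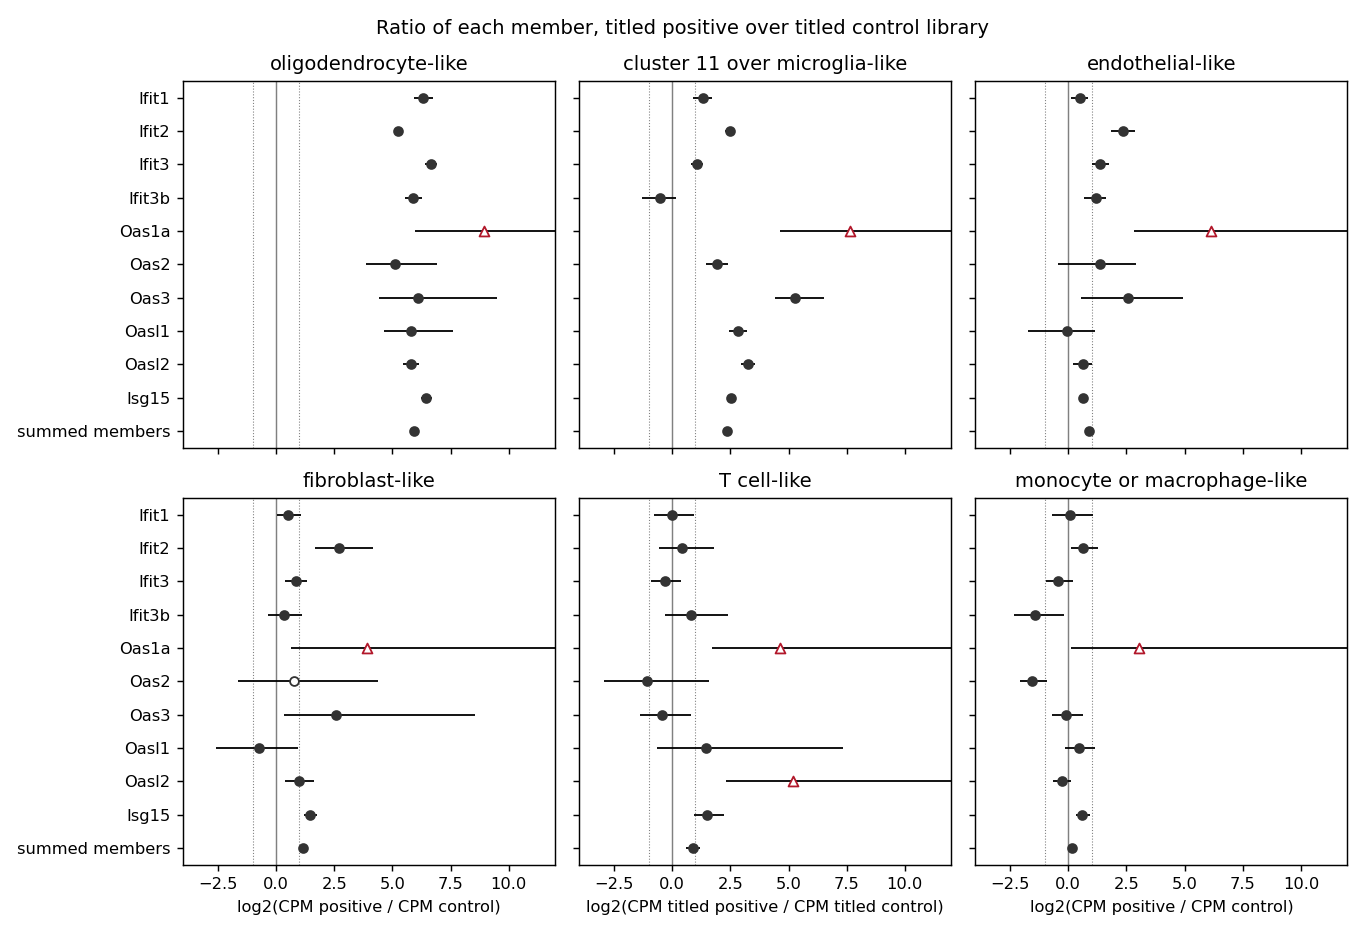
Log2 ratio of CPM, titled positive over titled control, for each member and their sum in 6 comparisons. Points are ratios with a pseudocount of 0.5 counts, horizontal lines are 95% counting intervals, triangles mark genes at 0 in titled control, open circles genes under 10 UMIs, and dotted lines 2-fold; the oligodendrocyte-like points lie at 5.09 or higher, and the macrophage-like points on both sides of 0.

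Ependymal-like cells ran the other way. They numbered 37 in titled positive and 159 in titled control, below the 50 per library set for counting members past 2-fold, so levels and ratios are given without such a count. Isg15 had 638 CPM in titled positive and 2033 CPM in titled control, a log2 ratio of -1.67 (-1.94 to -1.41). Ifit3 had 341 CPM in titled positive and 744 CPM in titled control, a log2 ratio of -1.11 (-1.50 to -0.77). Both genes were lower in titled positive, and so were Ifit1, with 89.1 CPM in titled positive and 338 CPM in titled control (-1.89, -2.70 to -1.24), Ifit3b, with 119 CPM and 407 CPM (-1.75, -2.43 to -1.18), and Oasl2, with 356 CPM and 747 CPM (-1.06, -1.44 to -0.72). Ifit2 was higher, with 44.5 CPM in titled positive and 14.3 CPM in titled control (1.67, 0.26 to 2.92; 9 and 15 UMIs).

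Oas1a, Oas2, Oas3 and Oasl1 had few UMIs there. Oas1a had 5 UMIs in titled positive and 0 in titled control, Oas3 2 and 0, Oasl1 1 and 9, and Oas2 0 and 0. Summed over the members, ependymal-like cells had 329 UMIs (1628 CPM) in titled positive and 4496 UMIs (4292 CPM) in titled control, a log2 ratio of -1.40 (-1.56 to -1.24). Other genes of the interferon response in these cells were not all lower. Bst2, which tethers budding virus, had 1034 CPM in titled positive and 1480 CPM in titled control, and Rtp4 had 361 CPM and 571 CPM, while Gbp2 had 1321 CPM in titled positive and 332 CPM in titled control, and Igtp 1648 CPM and 120 CPM. The genes of these 4 with the higher level in titled positive were the interferon gamma-linked Gbp2 and Igtp.

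Astrocyte-like cells, 21 in titled positive and 1896 in titled control, had 1126 CPM of summed members in titled positive and 78.1 CPM in titled control, a log2 ratio of 3.85 (3.55 to 4.14). Oasl2 had 206 CPM in titled positive and 6.004 CPM in titled control (5.12), Isg15 441 CPM and 15.8 CPM (4.81), and Ifit1 65.7 CPM and 5.59 CPM (3.64). Ifit3 (3.26), Ifit2 (2.97) and Ifit3b (2.53) were lower in order but also above 0 in log2 ratio. Oas1a had 3 UMIs in titled positive and 0 in titled control, Oas3 3 and 1, Oas2 0 and 4, and Oasl1 0 and 4. In these 21 cells the carcinoma markers reached 18.6%, Isg15 118% and Ifit3 206% of what carcinoma-like cells held.

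Oas1a, a double-stranded RNA-sensing synthetase, had 7472 UMIs in 3609 barcodes of the titled positive library and 0 UMIs in the titled control library, where 3 counts, the limit a count of 0 allows, come to 0.0539 CPM. Its near-copy Oas1g had 2173 UMIs in titled positive and 0 in titled control. The other 9 members had UMIs in both libraries, from 36392 UMIs of Isg15 in titled positive and 4964 in titled control to 1059 UMIs of Oas2 in titled positive and 170 in titled control. Of the titled positive UMIs of Oas1a, 6790 lay in carcinoma-like cells, at 103 CPM (101 to 106), and every other class of 20 or more cells was lower. As a share of the carcinoma-like level, Oas1a stood at 37.3% in T cell-like cells (29.2 to 47.1), 26.6% in neutrophil-like cells (18.6 to 36.8), 10.6% in cluster 11 (7.56 to 14.5), 9.41% in oligodendrocyte-like cells (6.84 to 12.6) and 9.35% in macrophage-like cells (7.84 to 11.1). Over all 9 classes beside the carcinoma-like one, these shares were 0.827 to 1.59 times the share of the carcinoma markers in the same class. A level of Oas1a outside carcinoma-like cells was therefore not told apart from free RNA of the kind that carries the carcinoma markers. Oas1g ran beside it, at 30.1 CPM in carcinoma-like cells and at 39.6%, 27.8% and 8.79% of that level in T cell-like, neutrophil-like and oligodendrocyte-like cells.

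**Figure D3:**
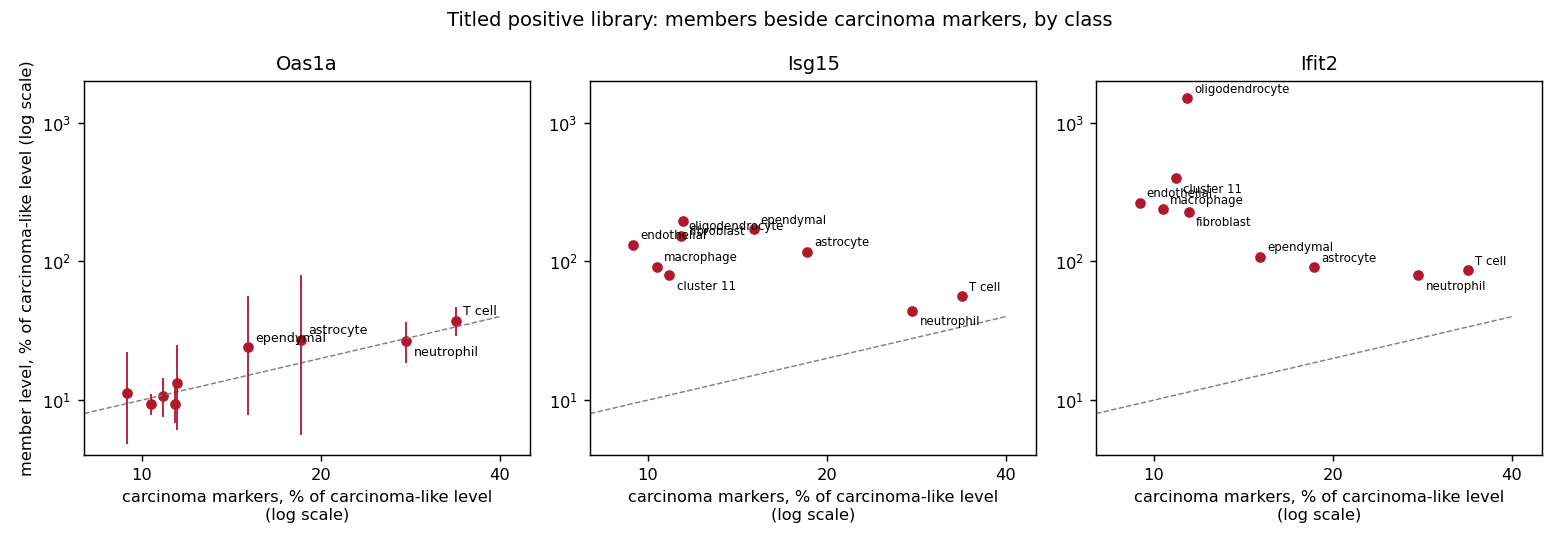
Titled positive library: level of Oas1a, Isg15 and Ifit2 in each class as a percentage of the carcinoma-like level (vertical axis, log scale) against the same percentage for the summed carcinoma markers (horizontal axis, log scale). The dashed line marks equal percentages and the vertical lines 95% counting intervals; Oas1a lies along it, while Isg15 and Ifit2 lie above it, with Ifit2 at 1498% in oligodendrocyte-like cells.

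Within the carcinoma-like class of titled positive, the members were not even. Cluster 8, led by Lcn2 and Ltf, had a summed level of 1618 CPM (1592 to 1644), against 790 CPM in cluster 2, 709 CPM in cluster 3 and 838 CPM in cluster 5. Isg15 had 641 CPM in cluster 8 and 297 to 374 CPM in the others, and Oas1a 164 CPM in cluster 8 and 87.7 to 104 CPM in the others. Both genes were thus higher in cluster 8 than in each of the other 3 clusters. Over the class, Ifit1 had 62.3 CPM, Ifit2 41.2 CPM, Ifit3 86.6 CPM, Ifit3b 42.9 CPM, Oas2 7.32 CPM, Oas3 33.2 CPM, Oasl1 20.1 CPM, Oasl2 128 CPM and Isg15 374 CPM. The synthetase and OAS-like genes made up 32.4% of the class's member UMIs, the IFIT genes 25.9% and Isg15 41.6%, on UMI counts with no scaling by length. The 3 carcinoma-like cells of titled control had 0 member UMIs and 0 carcinoma-marker UMIs. Neutrophil-like cells of titled positive (181 cells) had 164 CPM of Isg15, 54.1 CPM of Oasl2 and 47.2 CPM of Oas3, and the 10 of titled control had 22 member UMIs in all. As shares of the carcinoma-like level these titled positive values were 44.0%, 42.4% and 142%, where the carcinoma markers stood at 27.8%. The part of free RNA in them was not tested. Oas3, Oas2 and Oasl1 had higher levels in neutrophil-like than in carcinoma-like cells of titled positive, Oasl1 with 25.9 CPM (17.9 to 36.2) and 20.1 CPM (19.1 to 21.2) within counting error.

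Cluster 11 had more of the members than the microglia-like cells of titled control, with 825 CPM in cluster 11 of titled positive and 160 CPM in microglia-like cells of titled control, a log2 ratio of 2.36 (2.27 to 2.46). The comparison sets classes side by side that were not named alike. Oas3, the largest of the synthetases, had 41.9 CPM in cluster 11 and 1.01 CPM in microglia-like cells (5.30, 4.41 to 6.53). Oasl2 had 126 CPM in cluster 11 and 13.1 CPM in microglia-like cells (3.26, 2.97 to 3.57), and Oasl1 63.6 CPM and 9.01 CPM (2.81, 2.44 to 3.20). The OAS and OAS-like genes were thus well above counting error, as was Oas2, with 27.6 CPM in cluster 11 and 7.21 CPM in microglia-like cells (1.93, 1.47 to 2.41).

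Isg15 had 297 CPM in cluster 11 and 51.6 CPM in microglia-like cells (2.52, 2.37 to 2.69), and Ifit2 164 CPM and 29.4 CPM (2.48, 2.27 to 2.70). Ifit1 had 28.4 CPM in cluster 11 and 11.5 CPM in microglia-like cells (1.31, 0.89 to 1.72), and Ifit3 59.3 CPM and 28.4 CPM (1.06, 0.79 to 1.33). Ifit3b, with 6.19 CPM in cluster 11 and 9.01 CPM in microglia-like cells (-0.52, -1.29 to 0.15), was the member that was not higher. Oas1a, at 10.97 CPM and 0, was at least 32.5-fold higher against the floor, where cluster 11 held 10.9% of the carcinoma markers' level in carcinoma-like cells. In all, 9 of 10 members were at least 2-fold higher, beside 11.2% of all genes tested, and their median log2 ratio was 2.50 beside -0.39. Other antiviral effectors had 13 of 20 past 2-fold, led by Ifitm3 with 2302 CPM in cluster 11 and 219 CPM in microglia-like cells (3.40), with Mx2 the lowest (0.01). Interferon gamma-linked genes had 12 of 12 past 2-fold, ISG15 conjugation 3 of 5 and transcription factors 4 of 9, while of 8 receptors and kinases 0 were higher and 2 lower, Ifngr1 (-1.16) and Ifnar2 (-1.22). Of 14 dissociation genes, 9 were at least 2-fold lower in cluster 11 and 0 higher.

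Few of the titled control microglia-like cells held much of that class's signal. Cluster 17.2, with 98 cells (4.13% of the class), had 725 member UMIs, 51.0% of the class, and a summed level of 1301 CPM (1208 to 1399), against 84.8 CPM in cluster 0 with 2221 cells and 63.6 CPM in cluster 17.3 with 55 cells. The signal was uneven within it: 54 of the 98 cells had a member UMI, 10 cells held 516 of the 725 (71.2%), and 1 cell held 88. Isg15 had 379 CPM in cluster 17.2 and 29.5 CPM in cluster 0, Ifit2 294 CPM and 11.8 CPM, and Ifit3 228 CPM and 15.7 CPM. Cxcl10, a chemokine induced by interferons, had 386 CPM in cluster 17.2 and 18.8 CPM in cluster 0, Usp18 240 CPM and 21.4 CPM, and Rsad2, the antiviral enzyme viperin, 64.6 CPM and 1.26 CPM. Members and listed genes took no part in choosing the variable genes for clustering, but the cluster was singled out after its values were seen. With cluster 17.2 left out, the summed log2 ratio of cluster 11 over microglia-like cells was 3.30.

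**Figure D4:**
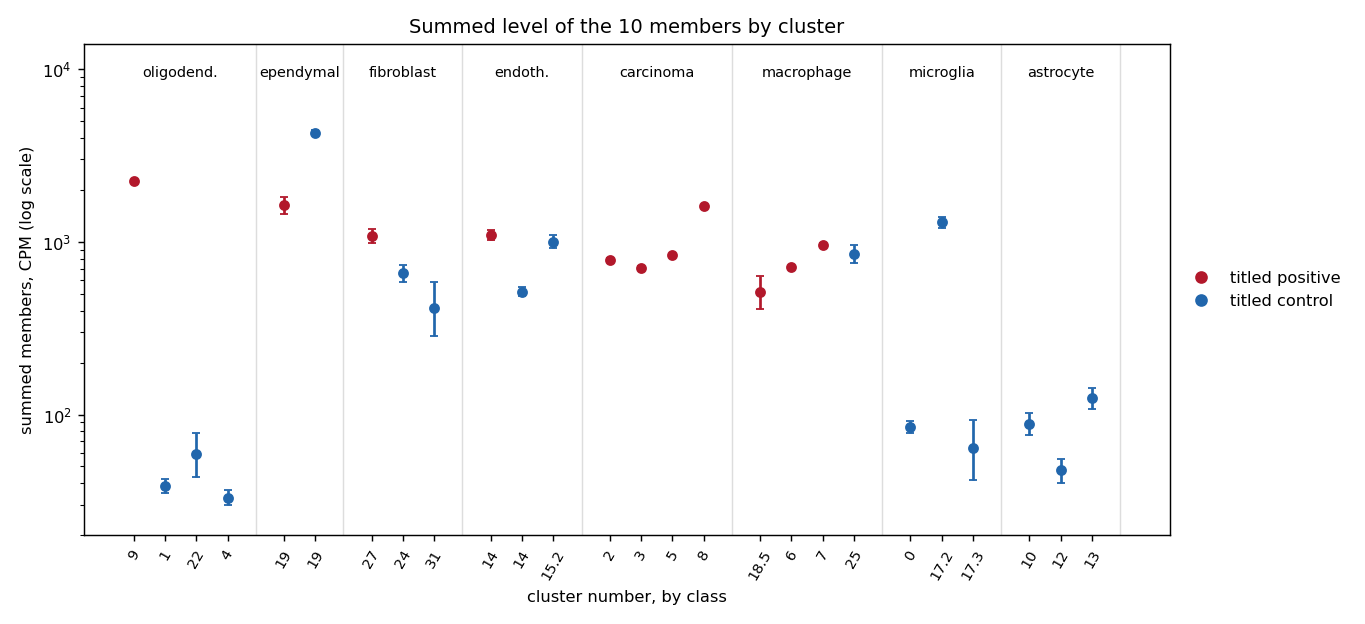
Summed level of the 10 members in CPM (log scale) in each cluster of at least 20 cells, by class, titled positive in red and titled control in blue; vertical lines are 95% counting intervals. Microglia-like cluster 17.2 at 1301 CPM stands far above clusters 0 and 17.3, oligodendrocyte-like cluster 9 at 2249 CPM far above clusters 1, 4 and 22, and ependymal-like cluster 19 is higher in titled control.

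Endothelial-like cells, the lining of vessels (90 in titled positive and 517 in titled control), had 1098 CPM of summed members in titled positive and 600 CPM in titled control, a log2 ratio of 0.87 (0.75 to 0.99). Of the IFIT genes, Ifit2 differed most, with 110 CPM in titled positive and 21.5 CPM in titled control (2.35, 1.85 to 2.86), followed by Ifit3 with 156 CPM and 59.98 CPM (1.38, 1.02 to 1.73), Ifit3b with 85.1 CPM and 37.8 CPM (1.18, 0.69 to 1.64) and Ifit1 with 118 CPM and 84.9 CPM (0.48, 0.10 to 0.84). Isg15 had 493 CPM in titled positive and 317 CPM in titled control (0.64, 0.45 to 0.82) and Oasl2 98.1 CPM and 64.1 CPM (0.62, 0.19 to 1.02). Oas2, Oas3 and Oasl1 had few UMIs. Oas3 had a log2 ratio of 2.59 (0.57 to 4.91), and the intervals of Oas2 (1.36, -0.42 to 2.92) and Oasl1 (-0.08) included 0. In titled positive, Oas3 stood at 26.1% of its carcinoma-like level, where the carcinoma markers reached 9.46%. Oas1a had 8 UMIs in titled positive and 0 in titled control, under the minimum for the count.

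Of the 9 members tested in endothelial-like cells, 5 were at least 2-fold higher, Ifit2, Ifit3, Ifit3b, Oas2 and Oas3, beside 9.29% of all genes tested, and the median log2 ratio was 1.18 beside -0.20. Titled control cluster 15.2, 97 endothelial-like cells with Gkn3 among their leading genes, had 1002 CPM of summed members against 515 CPM in the titled control cells of cluster 14, the cluster of all 90 titled positive cells. Other antiviral effectors had 5 of 19 higher and 1 lower, from Ifitm1 with 1409 CPM in titled positive and 127 CPM in titled control (3.48) to Apobec3 (-1.01), and ISG15 conjugation 0 of 5 higher and 1 lower, Trim25 (-1.12). Interferon gamma-linked genes were again past 2-fold in 12 of 12, led by the chemokine Cxcl9 with 264 CPM in titled positive and 0.347 CPM in titled control (8.99).

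Fibroblast-like cells, 72 in titled positive and 95 in titled control, had 1399 CPM of summed members in titled positive and 621 CPM in titled control, a log2 ratio of 1.17 (0.99 to 1.36). Ifit2 had 94.1 CPM in titled positive and 13.6 CPM in titled control (2.71, 1.67 to 4.17), Isg15 733 CPM and 267 CPM (1.45, 1.18 to 1.74), and Oas3 16.7 CPM and 1.94 CPM (2.59, 0.33 to 8.54) on 11 and 1 UMIs. These were the 3 of 8 members tested that passed 2-fold, beside 15.8% of all genes tested. Ifit1 with 140 CPM in titled positive and 96.8 CPM in titled control (0.52, 0.02 to 1.06), Oasl2 with 126 CPM and 63.9 CPM (0.97), Ifit3 with 188 CPM and 105 CPM (0.84), Ifit3b with 69.9 CPM and 54.2 CPM (0.36) and Oasl1 with 9.11 CPM and 15.5 CPM (-0.74) did not. Oas1a, with 9 and 0 UMIs, and Oas2, with 5 and 2 UMIs, were under the minimum. A single cell held 207 of the 921 member UMIs (22.5%) of the titled positive class and another 124 of 321 (38.6%) of the titled control class, and the carcinoma markers summed to 1268 CPM in titled positive and 811 CPM in titled control, whose 4 markers at 0 left 7 detected. In the 16 titled positive and 46 titled control cells with no carcinoma-marker UMI at 2000 UMIs the summed log2 ratio was -0.33. In those cells 0 members were at least 2-fold higher, with the share of all genes not counted. With each cell named by its own markers (30 and 10 cells) the summed log2 ratio was 2.26. Cluster 27, led by the collagen genes Col1a2, Col1a1 and Col3a1, held 44 titled positive and 0 titled control cells, with 1080 CPM of summed members. Of the titled control cells, 75 lay in cluster 24 (659 CPM) and 20 in cluster 31 (416 CPM). Cluster 24 was led by Mgp, Prg4 and Igfbp6, and its fibroblast marker score was 2.76, beside 5.93 in cluster 27. The ratio of this class thus sets partly unlike cells side by side. Other antiviral effectors had 9 of 19 higher, Trim30a (2.95) and Rsad2 (2.89) at the top and Mx1 and Mx2 (-0.35 each) at the bottom, and interferon gamma-linked genes 11 of 11. Dissociation genes were past 2-fold in 13 of 13, with a median log2 ratio of 1.94, above the 0.90 of the 8 members tested. Their part in the result was not tested.

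T cell-like cells, 259 in titled positive and 83 in titled control, formed cluster 16, in which granzyme genes of cytotoxic cells also lead. NK cells were its second class by marker score (2.65, beside 4.63 for T cells). At Leiden resolution 2 a separate NK cell-like cluster held 45 titled positive and 25 titled control cells, and the T cell-like cluster 238 and 58. The make-up of the class may therefore differ between the libraries. At the main setting the summed level of T cell-like cells was 534 CPM in titled positive and 289 CPM in titled control, a log2 ratio of 0.88 (0.58 to 1.21), but the intervals of all 4 IFIT genes included 0. Ifit1 had 48.2 CPM in titled positive and 47.2 CPM in titled control (-0.01), Ifit2 35.8 CPM and 25.1 CPM (0.43), Ifit3 66.1 CPM and 81.7 CPM (-0.33) and Ifit3b 35.2 CPM and 18.9 CPM (0.80). Isg15 had 211 CPM in titled positive and 72.3 CPM in titled control (1.52, 0.94 to 2.22). Oasl2 had 107 UMIs (58.0 CPM) in titled positive and 0 in titled control, at least 6.15-fold higher against the floor, and Oas1a 71 UMIs (38.5 CPM) and 0, at least 4.08-fold higher. Those 3 genes and Oasl1, with 12.5 CPM in titled positive and 3.14 CPM in titled control (1.43, -0.63 to 7.35), made 4 of 10 members higher, beside 17.9% of all genes tested. Oas2, with 4.88 CPM in titled positive and 9.43 CPM in titled control (-1.10, -2.95 to 1.57; 9 and 3 UMIs), was the 1 member lower, beside 14.3% of all genes tested, and Oas3 had 24.4 CPM and 31.4 CPM (-0.42). These titled positive cells held 33.7% of the carcinoma markers' level in carcinoma-like cells, and after subtraction of free RNA estimated from them the summed log2 ratio was -0.53. At that setting 1 member was higher and 5 lower, with the share of all genes not counted. With each cell named by its own markers (107 cells in titled positive and 34 in titled control) it was -0.33. The 10 cells with most member UMIs held 40.6% of them in titled positive and 83.7% in titled control. The top titled positive cell had 105 member UMIs beside 125 carcinoma-marker UMIs and 18 T cell-marker UMIs.

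Monocyte- or macrophage-like cells, 2254 in titled positive and 85 in titled control, hardly differed in the sum, with 800 CPM in titled positive and 714 CPM in titled control, a log2 ratio of 0.16 whose interval included 0. Within the family the directions were mixed. Isg15 had 342 CPM in titled positive and 224 CPM in titled control (0.61, 0.32 to 0.92) and Ifit2 98.2 CPM and 61.9 CPM (0.64, 0.11 to 1.29). Oas2 had 23.8 CPM in titled positive and 69.0 CPM in titled control (-1.56, -2.09 to -0.94) and Ifit3b 8.28 CPM and 21.4 CPM (-1.44, -2.35 to -0.21). The intervals of these 4 genes lay to either side of 0, in pairs. Ifit1 with 30.9 CPM in titled positive and 28.6 CPM in titled control (0.06), Ifit3 with 49.97 CPM and 66.6 CPM (-0.44), Oas3 with 47.8 CPM and 49.96 CPM (-0.10), Oasl1 with 73.0 CPM and 52.3 CPM (0.45) and Oasl2 with 116 CPM and 140 CPM (-0.28) lay between them. Oas2 and Ifit3b were the 2 members at least 2-fold lower, beside 22.2% of all genes tested, and Oas1a, with 9.64 CPM in titled positive and 0 in titled control, the 1 past 2-fold higher, beside 13.6%, a call that rests on the pseudocount because the floor of the small titled control class allows at least 1.35-fold only. The classes lay in different clusters, 6, 7 and 18.5 in titled positive with 711, 961 and 512 CPM of summed members, and mainly 25 in titled control with 851 CPM. With titled control mixed clusters that scored highest for macrophage markers added, the summed log2 ratio was 0.73. Other antiviral effectors had 1 of 20 higher, Ifitm1 with 672 CPM in titled positive and 26.2 CPM in titled control (4.62), and 2 lower, Mx1 (-1.04) and Mx2 (-2.56), while 9 of 12 interferon gamma-linked genes were higher and Irf7 had 352 CPM in titled positive and 704 CPM in titled control (-1.001).

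Counted per cell, the oligodendrocyte-like difference was spread over most cells. With each cell thinned to 2000 UMIs, 85.3% of titled positive and 5.08% of titled control oligodendrocyte-like cells had a UMI of any member (92.5% and 15.3% at full depth), and 45.05% (41.7 to 48.5) and 0.0276% (1 cell) had 3 or more different members. At that depth no carcinoma-marker UMI, a gauge of free RNA, was seen in 135 of 848 titled positive cells of the class and in 3586 of 3620 titled control cells. Ependymal-like cells had 32.4% of titled positive (18.0 to 49.8) and 63.5% of titled control cells (55.5 to 71.0) with 3 or more members. Cluster 11 had a member UMI in 70.3% of titled positive cells (92.2% at full depth) and microglia-like cells in 11.1% of titled control cells (16.4%). For endothelial-like cells the shares were 78.9% in titled positive and 56.1% in titled control, for fibroblast-like cells 62.5% and 45.3%, for macrophage-like cells 66.8% and 44.7%, and for T cell-like cells 40.9% and 25.3%. Carcinoma-like cells of titled positive had a share of 65.3%, with 15.2% of cells at 3 or more members. Of macrophage-like cells, 12.2% in titled positive and 16.5% in titled control held 3 or more, with intervals that overlapped (10.9 to 13.7 and 9.31 to 26.1).

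**Figure D5:**
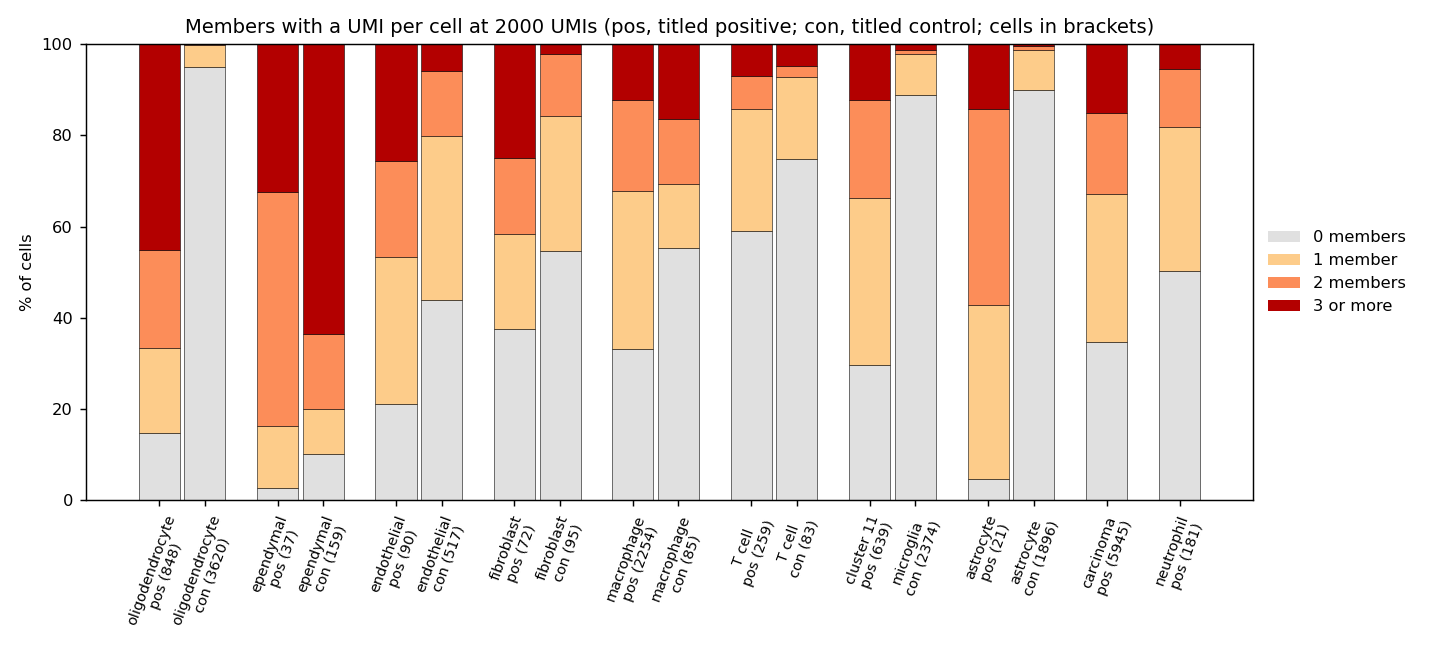
Share of cells (vertical axis, percent) with UMIs of 0, 1, 2 or 3 or more different members after thinning each cell to 2000 UMIs, by class, titled positive (pos) left of titled control (con), with cell numbers in brackets. Oligodendrocyte-like cells have 45.05% of cells with 3 or more members in titled positive and 0.0276% in titled control, and ependymal-like cells 32.4% and 63.5%.

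Over the 22 class-by-library sums of at least 20 cells, which share libraries and differ in depth, the non-member genes whose log2(CPM + 1) was most like the mean of the members included Iigp1 (Pearson r 0.93), Zbp1 (0.93), Igtp (0.92), Gm12250 (0.92), Tap1 (0.92), Gm4951 (0.91), Irgm1 (0.91), Rtp4 (0.91) and Psmb9 (0.91). Each member against the mean of the other 9 gave 0.84 for Isg15, 0.77 for Ifit3, 0.76 for Ifit2, 0.75 for Oasl2 and Ifit1, 0.63 for Oas3, 0.61 for Oasl1, 0.60 for Oas1a, 0.58 for Ifit3b and 0.41 for Oas2. Oas2 was thus the member least like the rest. These are descriptions of the same libraries and carry no test.

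Interferon ligands themselves were sparse. Ifnb1 had 3 UMIs in kept cells of titled positive, 2 in cluster 11 and 1 in macrophage-like cells, and 0 in titled control, Ifne had 1 and 0, and Ifnk 2 and 2. Ifng, the interferon of T and NK cells, had 947 UMIs in titled positive and 32 in titled control. Most lay in T cell-like cells, with 824 UMIs (447 CPM) in 90 cells of titled positive and 29 UMIs (91.2 CPM) in 9 cells of titled control.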

How the data were processed

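The authors deposited raw UMI counts per gene and barcode, unnormalised and made with Cell Ranger on GRCm38 per the submitters' processing notes, which give no version. The sources used here do not give the annotation, cell calling or strand setting. Counts were used as deposited, and each gene list holds only genes with at least 1 UMI. Barcodes with under 200 genes or over 20% mitochondrial UMIs (5 in titled positive, 11 in titled control) and doublets called by Scrublet in scanpy 1.11.5 (329, 3.04%, and 720, 6.92%) were left out. Both libraries were clustered together (Leiden, leidenalg 0.10.2, resolution 1, 15 neighbours, 30 components, 2000 variable genes, members and listed genes left out), and clusters were named by a marker score of at least 1.5 with at least 3 markers in at least 10% of cells. A cluster with a close second class was clustered once more, and 123 titled positive and 468 titled control cells stayed in mixed clusters outside the classes. Members and lists were chosen with earlier results of these data known, and some naming thresholds were set after the clusters were seen.

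UMIs were summed per class and library (Python 3.11.15, numpy 2.4.6, scipy 1.17.1, pandas 2.3.3) as CPM. Ratios had a pseudocount of 0.5 counts, and counts of members past 2-fold needed 10 UMIs in the class sums together and 50 cells per library. The floor for a gene at 0 was 3 counts of the class. All members are named; of each list, genes are named from the 2 highest and 2 lowest ratios. Genes of the ependymal-like paragraph and of the microglia-like clusters were chosen after their values were seen. The ratio intervals were tested on simulated independent Poisson counts, the model that they assume. That simulation cannot show how they hold for real UMIs gathered in few cells, where the spread is wider than counting error. Alternatives changed the naming, doublets, resolution, depth, free RNA, pseudocount, scaling and cells used. The share of all genes past 2-fold was counted at the main settings only. Some genes of the lists and of the genes most like the members are not reported here.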

Additional observations from a re-analysis of the deposited data

Results flagged for a closer look

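In ependymal-like cells several members were lower in the titled positive library with counting intervals below 0, while the same genes had intervals above 0 in other classes. Their log2 ratios there were -1.89 for Ifit1 and -1.11 for Ifit3, each with intervals above 0 in 5 of 8 comparisons, -1.75 for Ifit3b (3 of 8), -1.06 for Oasl2 (6 of 8) and -1.67 for Isg15 (7 of 8). The summed members had -1.40 there, with intervals above 0 in 6 of 8 comparisons. The carcinoma markers summed to 1668 CPM in titled positive and 481 CPM in titled control ependymal-like cells, and their part in these ratios was not tested. In macrophage-like cells Ifit3b had -1.44 and Oas2 -1.56, with intervals above 0 in 3 of 8 and 2 of 8 comparisons. The difference between classes was not tested, since each library is a single sample and the intervals cover counting error only.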

How the results depend on the processing

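The summed log2 ratio kept its direction under every alternative run in oligodendrocyte-like (5.62 to 6.80) and endothelial-like cells (0.71 to 1.00) and for cluster 11 over microglia-like cells (2.29 to 3.30). The 3.30 came from leaving out the microglia-like cluster with the highest member level, which could only raise the ratio. In macrophage-like cells the ratio ran from 0.02 to 0.73, but its main interval included 0, so there was no direction to keep. It turned negative in T cell-like cells named cell by cell (-0.33, with 2 members higher and 2 lower) or with estimated free RNA subtracted (-0.53, 1 higher and 5 lower), and in fibroblast-like cells without carcinoma-marker UMIs (-0.33, 0 higher and 2 lower). Those marker-free cells gave 0.080 with 0 higher for T cell-like, 0.71 with 3 higher and 1 lower for endothelial-like, 0 higher for macrophage-like, and 6.44 with 6 higher for oligodendrocyte-like cells, with fewer cells and UMIs by construction. For the member counts under alternatives, the share of all genes past 2-fold was not counted. They therefore cannot be set against that share. T cell-like cells had 0.52 as a mean over cells, 1.39 with doublets kept (0 lower) and 0.41 when thinned (0 lower). Endothelial-like cells had 1.00 with doublets kept, 3 higher when thinned, and 1 lower when named cell by cell. Fibroblast-like cells had 0.96 as a mean over cells, 2.26 named cell by cell, 1 lower with estimated free RNA subtracted, and 1.52 without the top cell of each library. Macrophage-like cells had 1 lower named cell by cell, 0 higher with estimated free RNA subtracted, and 0.73 with mixed titled control clusters added. Oligodendrocyte-like cells had 5.62 named cell by cell, 6.18 thinned, 6.42 with 5% and 6.80 with estimated free RNA subtracted, 6.12 scaled by the median gene and 6.25 without the top cells. Cluster 11 over microglia-like cells had 2.57 as a mean over cells, 2.46 with doublets kept, 2.48 thinned, 2.49 scaled by the median gene, 1 lower with estimated free RNA subtracted, and 3.30 without cluster 17.2. The cause of these shifts was not tested. Of the summed ratios 55 moved by less than counting error, 22 by more and 3 turned, and of the counts 101 stayed within 1.5 times and 19 did not. No paired analysis was possible because each group is 1 library. Single UMIs limit Oas2, Oas3 and Oasl1 in the smaller classes.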

Other observations

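Of the other genes of the families, Oas1g had 2099 UMIs in kept cells of titled positive and 0 in titled control. In kept cells Oas1b had 731 UMIs in titled positive and 116 in titled control and was highest in ependymal-like cells, with 54.4 CPM in titled positive and 42.0 CPM in titled control. Oas1c had 440 UMIs in titled positive and 64 in titled control. Ifit1bl1 had 3.79 CPM in titled positive and 28.3 CPM in titled control T cell-like cells, a log2 ratio of -2.88 on 7 and 9 UMIs.

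A single titled control oligodendrocyte-like cell held 177 of the 901 member UMIs of its class (19.6%). It had 18069 UMIs, with 57 of Ifit3, 50 of Isg15, 27 of Ifit3b, 25 of Oasl2 and 18 of Ifit1, and 0 of Oas2 and Oas3. All 9 oligodendrocyte markers were detected in it, with 2173 marker UMIs and 0 carcinoma-marker UMIs.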
